A study of Homo sapiens with 6 samples.

Results

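The genes described here are 10 regulators of epithelial-mesenchymal transition (EMT): the zinc-finger repressors SNAI1, SNAI2, ZEB1 and ZEB2, the basic helix-loop-helix factor TWIST1, the epithelial transcription factors GRHL2, OVOL1 and OVOL2, and the epithelial splicing factors ESRP1 and ESRP2. They were taken by gene name from 58735 annotated genes, and no threshold on their values was used. Messenger RNA was sequenced in NCI-N87, an established human gastric carcinoma line, with 2 libraries each of the wild type (WT) and of KRT17 knockout groups named KO1 and KO2. KRT17 encodes a type I keratin of the intermediate filaments. The labels do not say whether KO1 and KO2 are guides or clones, how the knockout was made, or whether the 2 libraries of a group came from separate cultures, so p-values cover the variation between libraries, and part or all of it may be technical. All 3 groups share the cell line named in the labels and no treatment is listed. Levels are in FPKM as deposited, in which fragments are divided by exon length and by a scaling total for each library. This allows comparison between genes, but the length counts all annotated exons of a gene, used or not.

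Epithelial cells hold neighbours together through E-cadherin and tight junction proteins. In EMT, SNAI, ZEB and TWIST factors bind E-box sequences and switch such genes off, while GRHL and OVOL factors keep the epithelial programme on, in part by repressing ZEB1. ESRP proteins direct the epithelial splice forms of genes such as CD44 and FGFR2, and microRNAs of the miR-200 family hold ZEB1 and ZEB2 down, while the ZEB factors repress the miR-200 genes in turn.

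KRT17 was at 739 and 753 FPKM in the WT libraries, 2.29 and 2.40 in KO1, and 11.3 and 10.4 in KO2. NCI-N87 is known for amplification of ERBB2, and ERBB2, GRB7 and STARD3 of that amplicon summed to 1910 to 2000 FPKM in WT but 13.0 to 14.8 in the 4 libraries labelled knockout. The 7 epithelial markers (EPCAM, KRT8, KRT18, KRT19, CDH1, CLDN4, CLDN7) summed to 3790 to 3900 FPKM in WT and 343 to 415 in the knockout libraries. KRT8 (166 to 197 FPKM) and KRT18 (146 to 184) made up most of the knockout sum. CLDN7 (17.4 to 19.3), CLDN4 (9.85 to 11.4) and EPCAM (2.79 to 3.34) were lower than in WT but still expressed. KRT19 was at most 0.151 and CDH1 at most 0.567 there. By their ERBB2, GRB7 and STARD3 levels, the libraries labelled KO1 and KO2 lack the hallmark of the labelled line. Whether they come from the same line was not tested, and every difference from WT below is one between libraries with these labels. The 9 fibroblast markers summed to 0.78 to 0.907 FPKM in WT and 44.8 to 58.1 in the knockout libraries, mostly LUM, COL1A1 and DCN, whereas PDGFRA had no read in any library and COL1A2 and THY1 were near 0. Sums in the knockout libraries were 1.15 to 2.19 FPKM for leukocyte, 0.668 to 0.746 for endothelial, 0.463 to 0.63 for neuroendocrine and 7.36 to 10.2 for melanocyte or neural crest markers (WT 1.38 to 1.43, 0.106 to 0.127, 0.166 to 0.262 and 2.44 to 2.51). The last rise was that of MITF, from 0.135 and 0.144 FPKM in WT to 5.92 to 9.04, while SOX10, PMEL and MLANA were lower in the knockout libraries than in WT. Gastric and intestinal markers summed to 43.2 to 45.4 FPKM in WT, 15.0 to 16.2 in KO1 and 2.72 to 3.13 in KO2. Within that sum CDX2 went from 24.2 and 25.7 FPKM in WT to at most 0.0131, and MUC5AC from 0.228 in both WT libraries to 8.78 and 9.54 in KO1 but 0.175 and 0.176 in KO2. In bulk RNA, fewer cells of a type and less RNA per cell cannot be told apart, and the part of other cell types in the results was not tested.

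The panel separated WT from both knockout groups. Reads of ESRP1, GRHL2, OVOL1, OVOL2 and TWIST1 were plentiful in WT and at or near 0 reads in the knockout libraries, SNAI2 went the other way, and ZEB1 and ZEB2 were 7.14-fold to 15.4-fold higher there. SNAI1 and ESRP2 were expressed in all 6 libraries. In WT the order of FPKM levels was ESRP1 (54.1 ± 1.9, SD, n = 2), ESRP2 (18.5 ± 1.08), GRHL2 (15.1 ± 0.349), OVOL2 (5.54 ± 0.182), OVOL1 (4.63 ± 0.537), SNAI1 (4.5 ± 0.473), TWIST1 (2.7 ± 0.5), ZEB1 (0.382 ± 0.00555), ZEB2 (0.0289 ± 0.0193) and SNAI2 (no read). OVOL1 and SNAI1 overlapped between libraries, and the other neighbours in that order did not. In KO1 the order was ESRP2, SNAI2, ZEB1, SNAI1 and ZEB2, with no overlap between neighbours. In KO2 it was SNAI2 and ESRP2, which overlapped, then SNAI1, ZEB1 and ZEB2. The remaining 5 genes were under 0.06 FPKM in every knockout library.

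**Figure D1:**
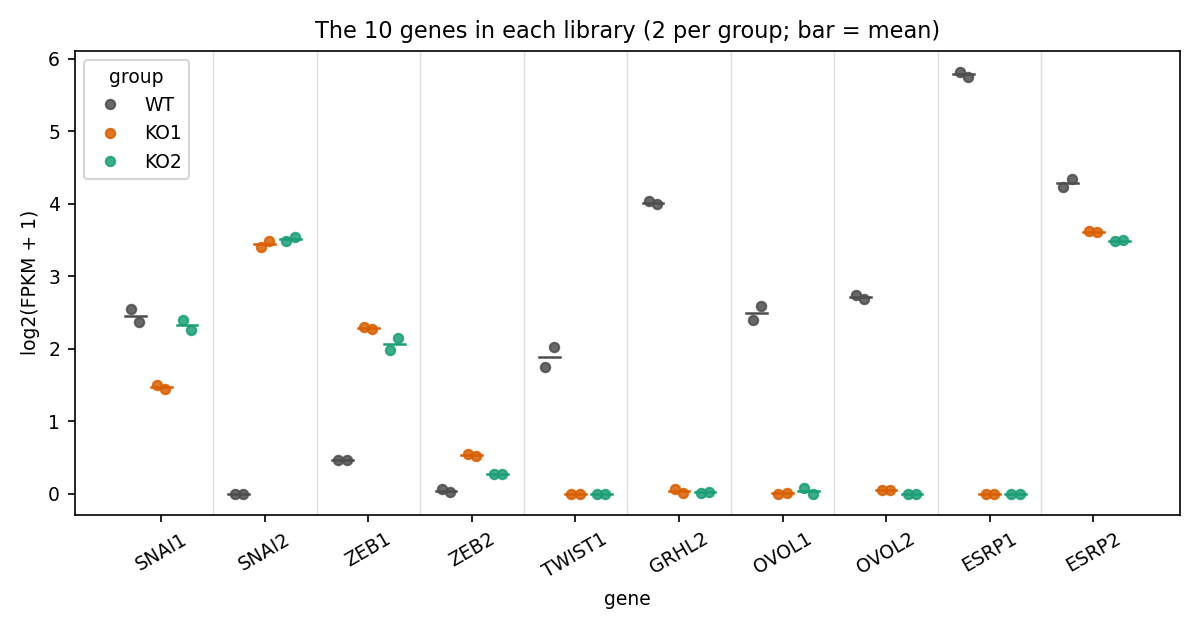
Level of each of the 10 genes on the vertical axis as log2(FPKM + 1), with each library as a point and each group mean as a bar (WT grey, KO1 orange, KO2 green). SNAI2, ZEB1 and ZEB2 lie higher in all 4 knockout libraries, 5 genes fall to or near 0 there, and SNAI1 separates KO1 from the other groups.

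Changes were tested with limma on log2(FPKM + 1) over the 16046 genes that reached 1 FPKM in at least 2 libraries, with Benjamini-Hochberg adjustment over all of them. The 1 added to each FPKM shrinks log2 changes at low levels, so they can fall short of the folds given beside them. Of the 10 genes, 9 passed this filter and ZEB2 did not. For the average of KO1 and KO2 against WT, 2 of the 9 were called higher and 7 lower at an adjusted p below 0.05, where 80.6% of all tested genes were called. A call by itself therefore says little in this comparison, so each p below is given beside the levels and the size of the change. In addition, SNAI2 and ZEB1 passed the filter through the knockout libraries alone, and TWIST1, GRHL2, OVOL1, OVOL2 and ESRP1 through the WT libraries alone. These 7 had to differ, and their p-values support nothing beyond the levels. SNAI1 and ESRP2 passed in both. Listed genes below that passed through WT alone or the knockout libraries alone also had to differ from WT. Their p-values against WT support nothing beyond the levels either. Over all tested genes, 40.5% were called higher and 40.1% lower. KO1 against WT gave 2 higher and 7 lower, where 77.8% of all genes were called, 39.3% higher and 38.6% lower. KO2 against WT gave 2 higher and 6 lower with 1 not called, where 78.9% of all genes were called, 39.1% higher and 39.8% lower. Both comparisons share the WT libraries. KO2 against KO1 gave 1 higher and none lower of the 9 (26.2% of all genes called, 11.2% higher and 15.0% lower).

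**Figure D2:**
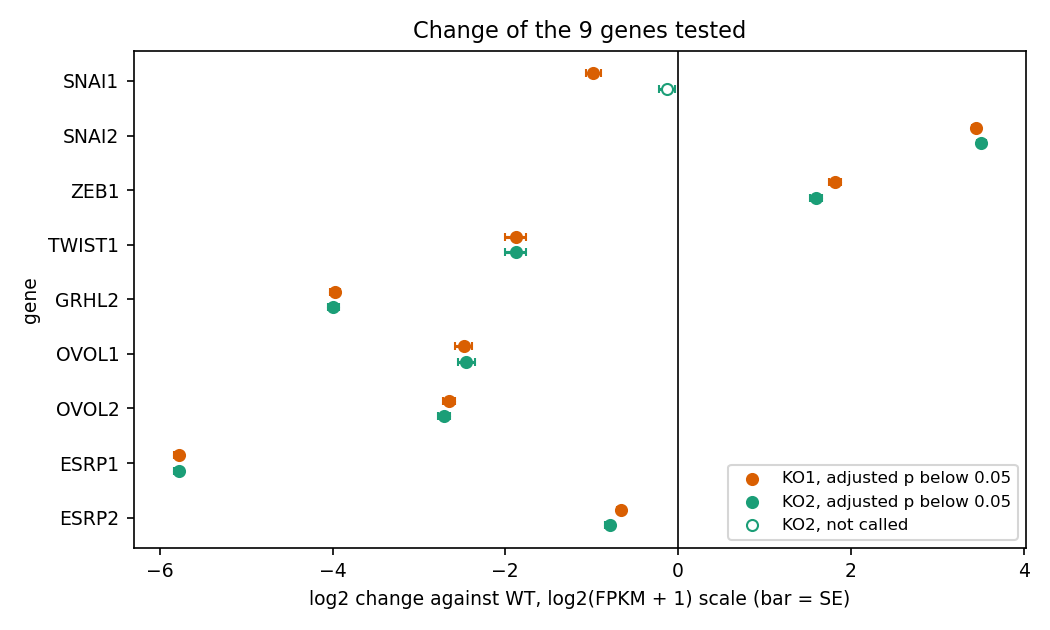
Change of the 9 tested genes against WT on the horizontal axis, as log2 on the log2(FPKM + 1) scale with SE, for KO1 (orange) and KO2 (green), which share the WT libraries. KO1 and KO2 lie close together for 8 of the 9 genes, and SNAI1 is at -0.98 in KO1 and -0.13 in KO2 (open point, not called).

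SNAI1 and SNAI2 encode zinc-finger repressors, known as Snail and Slug, that bind E-boxes in the CDH1 promoter. SNAI2 (chr8:48917604-48921740, minus strand, GRCh38) had no read in either WT library, which allows up to 3 reads per library, and was at 9.63 and 10.2 FPKM in KO1 and 10.2 and 10.6 in KO2. These levels stood on 668 to 784 reads per knockout library. SNAI2 was at least 228-fold higher in the knockout libraries, taken against a floor of 3 reads in each WT library. The change was 3.45 ± 0.05 (log2 ± SE) in KO1 and 3.51 ± 0.05 in KO2 (limma adjusted p = 6.32e-07 and 6.15e-07). KO2 and KO1 differed by 0.07 ± 0.05 on the log2 scale, which was not called (limma adjusted p = 0.415).

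SNAI1 (chr20:49982999-49988886, plus strand) was the only one of the 9 tested genes called between KO2 and KO1 in the main analysis (ZEB1, ESRP2 and the untested ZEB2 are given below). It was at 4.83 and 4.17 FPKM in WT, 1.83 and 1.72 in KO1, and 4.27 and 3.77 in KO2. KO1 lay below every other library, and KO2 overlapped WT. SNAI1 was 2.53-fold lower in KO1 than in WT (log2 change -0.98 ± 0.09, limma adjusted p = 0.000233). In KO2 the log2 change from WT was -0.13 ± 0.09 (limma adjusted p = 0.218), and scaling by library size alone moved it to 0.001, so no direction is given for KO2. KO2 was 2.26-fold above KO1 (log2 difference 0.85 ± 0.09, limma adjusted p = 0.00322). The average knockout change of -0.56 ± 0.08 (limma adjusted p = 0.00118) was thus a mean over unlike groups, and with the 4 knockout libraries fitted as one group its adjusted p was 0.16.

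Summed over the paralogs SNAI1, SNAI2 and SNAI3, the WT level of 6.1 ± 0.597 FPKM compared with 13.0 ± 0.363 for KO1 and 15.3 ± 0.0152 for KO2 (SD, n = 2). SNAI1 made up 73.8% of that sum in WT, and 13.7% of it in KO1 against 26.3% in KO2. SNAI2 made up none of it in WT, and 76.4% in KO1 against 68.0% in KO2. SNAI3, the least studied member of the family, was at 1.68 and 1.51 FPKM in WT, 1.24 and 1.32 in KO1, and 0.825 and 0.933 in KO2. Its knockout average fell by 0.33 ± 0.07 on the log2 scale (limma adjusted p = 0.00659), a call that voom on the recovered reads did not make (adjusted p = 0.0629).

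ZEB1 and ZEB2 are large repressors with zinc-finger clusters at both ends. ZEB1 (chr10:31318495-31529814, plus strand) was at 0.385 and 0.378 FPKM in WT, 3.92 and 3.83 in KO1, and 2.97 and 3.42 in KO2. All 4 knockout libraries were above both WT libraries, which held 72 and 60 reads. ZEB1 was 10.2-fold higher in KO1 (log2 change 1.82 ± 0.07, limma adjusted p = 1.32e-05) and 8.37-fold higher in KO2 (1.6 ± 0.07, adjusted p = 1.97e-05). The KO2 libraries lay below the KO1 libraries, by 0.22 on the log2 scale, which was not called by limma on FPKM (adjusted p = 0.0907) and was called by voom on the recovered reads (-0.26 ± 0.07, adjusted p = 0.0143).

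ZEB2 (chr2:144364364-144524583, minus strand) stayed under 0.5 FPKM everywhere and was not tested in the main analysis. Because its exons add up to 25058 bases, its reads still separate the groups: 23 and 7 in WT, 268 and 244 in KO1, and 102 and 95 in KO2. In FPKM these were 0.0425 and 0.0152, 0.458 and 0.428, and 0.208 and 0.204. The groups did not overlap. ZEB2 was 15.4-fold higher in KO1 and 7.14-fold higher in KO2 than in WT, and 2.15-fold higher in KO1 than in KO2 (95% counting interval 1.82 to 2.55 for the ratio of depth-scaled reads, 2.15). With the filter lowered to 0.1 FPKM, which ZEB2 passed through the knockout libraries alone and so had to differ from WT, limma called the knockout average (0.36 on the log2 scale, adjusted p = 0.00204) and KO2 against KO1 (-0.26, adjusted p = 0.0441). Per length, ZEB1 was the main ZEB transcript in every group, with 93.1% of the summed ZEB level in WT and, in the knockout groups, 89.7% (KO1) and 93.9% (KO2). These shares depend on lengths over all annotated exons, 8650 bases for ZEB1 against 25058 for ZEB2. By reads ZEB1 also led, with 132 against 30 in WT, 1545 against 512 in KO1 and 1053 against 197 in KO2.

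The miR-200 microRNAs come from 2 clusters, MIR200B, MIR200A and MIR429 on chromosome 1 and MIR200C and MIR141 on chromosome 12. Their mature sequences are shown because they fall into 2 seed groups and both groups have matches in the ZEB 3′ UTRs. Capitals mark the seed, bases 2 to 8, in the RefSeq records on GRCh38.p14.
hsa-miR-200b-3p: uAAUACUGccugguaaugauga
hsa-miR-200c-3p: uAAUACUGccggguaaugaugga
hsa-miR-429: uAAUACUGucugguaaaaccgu
hsa-miR-200a-3p: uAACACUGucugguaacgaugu
hsa-miR-141-3p: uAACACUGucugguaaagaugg
The first 3 share the seed AAUACUG, whose match in DNA letters is CAGTATT, and the last 2 share AACACUG, whose match is CAGTGTT.

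The 3′ UTRs of the 10 genes were searched on the transcript strand for CAGTATT and CAGTGTT, which cannot overlap each other. The ZEB1 3′ UTR of 2549 bases held 6 and 3 of them, 9 in all. Of 1975 other 3′ UTRs within 20% of that length, 48.1% held any match and the highest count was 5. The ZEB2 3′ UTR of 5370 bases held 5 and 4, also 9 in all, and 0.117% of 854 3′ UTRs of like length held as many. ESRP1 had 2 matches, SNAI2 and GRHL2 had 1 each, and SNAI1, TWIST1, OVOL1, OVOL2 and ESRP2 had none. A match is a run of letters and not a measured binding site. The following 22-base stretches, with the match in capitals, show the first match of each seed group in each gene, at chr10:31527619-31527640 and chr10:31528032-31528053 on the plus strand for ZEB1, and at chr2:144389052-144389073 and chr2:144389236-144389257 on the minus strand for ZEB2 (GRCh38).
ZEB1, first CAGTATT: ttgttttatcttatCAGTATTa
ZEB1, first CAGTGTT: aaaatcatcagaatCAGTGTTt
ZEB2, first CAGTATT: gcactaccatacatCAGTATTt
ZEB2, first CAGTGTT: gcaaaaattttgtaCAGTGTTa

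Reads over the miR-200 loci were found in WT and in no knockout library. MIR200A had 52 and 80 reads in WT, MIR200B had 31 and 47, MIR429 had 79 and 63, and MIR200CHG, the host transcript of MIR200C and MIR141, had 33 and 22. All 4 had no read in the 4 knockout libraries, which makes MIR200A at least 23.5-fold, MIR200B at least 13.9-fold, MIR429 at least 24.6-fold and MIR200CHG at least 9.48-fold lower. The hairpins MIR200C and MIR141 themselves had no read in any library. Reads of an RNA-seq library over a hairpin come from longer transcripts, and mature microRNAs were not measured. The loci were thus without reads in the 4 libraries in which ZEB1 and ZEB2 were higher, and whether one bears on the other was not tested.

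Of the 13 microRNA loci listed for the ZEB and SNAI loops, 6 were tested, 5 were lower and none was higher in the knockout average (40.1% of all tested genes were called lower). The 5 passed the filter through the WT libraries alone, so their direction was fixed. The fifth lower locus, MIR203A, was at 2.11 and 4.45 FPKM in WT and had 1 read over the 4 knockout libraries. MIR34AHG, host of the SNAI1-targeting miR-34a, was at 1.46 and 1.66 FPKM in WT and 1.31 to 1.54 in the knockout libraries, and was not called (log2 change -0.11 ± 0.07, limma adjusted p = 0.202), although it was called lower after quantile normalization (adjusted p = 0.0499). MIR205 and its host transcript had no read in any library.

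**Figure D3:**
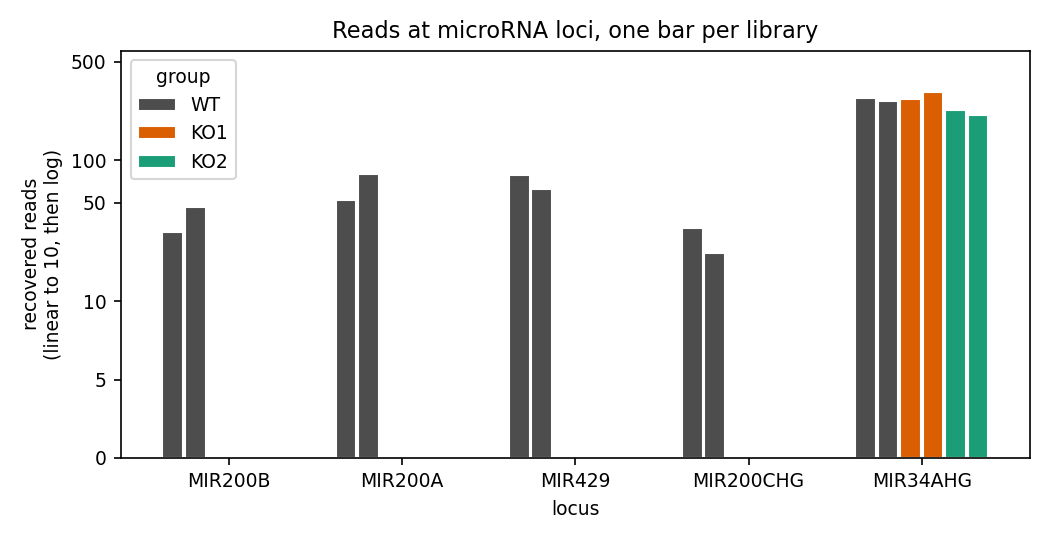
Recovered reads (vertical axis, linear up to 10 and logarithmic above) at 5 microRNA loci, with a bar for each library (WT grey, KO1 orange, KO2 green). The 4 miR-200 loci have 22 to 80 reads in the WT libraries and none in the knockout libraries, whereas MIR34AHG has 211 to 304 reads in all 6.

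The antisense transcript ZEB1-AS1 starts inside ZEB1, runs the other way and overlaps its first exons. ZEB1-AS1 was at 1.76 and 1.68 FPKM in WT, 1.58 and 1.67 in KO1, and 1.68 and 2.19 in KO2. These groups overlapped and the change was not called (0.03 ± 0.09 on the log2 scale, limma adjusted p = 0.804), while ZEB1 itself was 9.27-fold higher in the knockout average. No source used here gives the strand setting of the counting, and without strand the reads from the overlap of these transcripts cannot be told apart. The 250 bases before the most upstream of 7 RefSeq starts of ZEB1, chr10:31318167-31318416 on the plus strand (GRCh38.p14), are shown because they lead into ZEB1 and lie within exons of ZEB1-AS1 transcripts on the other strand. Capitals mark CAGGTG, the E-box that SNAI and ZEB factors bind, 57 bases before the start.
ZEB1 promoter: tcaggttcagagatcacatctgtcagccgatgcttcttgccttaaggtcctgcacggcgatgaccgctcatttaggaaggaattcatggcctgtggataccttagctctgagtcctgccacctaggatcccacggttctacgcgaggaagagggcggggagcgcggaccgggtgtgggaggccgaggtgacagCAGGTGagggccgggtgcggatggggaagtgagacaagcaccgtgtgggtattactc
The motif was searched as CAGGTG and as CACCTG, its form on the other strand, and 17.5% of 35116 RefSeq windows of this length held it. The ZEB1 start at 31319216 had 2 matches, the other 5 starts had none, and the ZEB2 window had none. The Grainyhead motif AACCGGTT, which reads the same on both strands, was in none of these windows and in 0.117% of all windows.

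TWIST1 (chr7:19020991-19117672, minus strand), a basic helix-loop-helix factor that induces EMT, fell in both knockout groups. It was at 2.35 and 3.05 FPKM in WT (103 and 114 reads) and had no read in any of the 4 knockout libraries. The groups did not overlap, and TWIST1 was at least 38.2-fold lower in the knockout average (log2 change -1.88 ± 0.1, limma adjusted p = 2.89e-05). Its paralog TWIST2 did the opposite. TWIST2 had no read in WT and was at 6.3 and 6.4 FPKM in KO1 and 8.09 and 8.66 in KO2, at least 91.5-fold higher in the knockout average (log2 change 3.05 ± 0.05, limma adjusted p = 5.37e-07). TWIST2 passed the filter through the knockout libraries alone, so that p supports nothing beyond the levels. KO2 was above KO1 by 0.35 ± 0.06 on the log2 scale (limma adjusted p = 0.0107). TWIST1 was therefore all of the summed TWIST level in WT (2.7 ± 0.5 FPKM), and TWIST2 was all of it in KO1 (6.35 ± 0.0674) and KO2 (8.38 ± 0.4).

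GRHL2, OVOL1 and OVOL2 sustain epithelial identity. GRHL2 (chr8:101492432-101669726, plus strand), a Grainyhead-like activator of CDH1 and claudin genes, was at 15.4 and 14.9 FPKM in WT. In the knockout libraries it had 6 and 1 reads in KO1 and 1 and 2 in KO2, against 2009 and 1654 in WT. Its depth-scaled reads were 772-fold lower in the knockout libraries (95% counting interval 419 to 1610), and the log2 change was -3.98 ± 0.06 (limma adjusted p = 3.81e-07).

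OVOL1 (chr11:65787022-65797219, plus strand), a zinc-finger repressor of ZEB1, was at 4.25 and 5.01 FPKM in WT (353 and 354 reads). It had no read and 1 read in the KO1 libraries and 4 reads and no read in the KO2 libraries. Its depth-scaled reads were 298-fold lower in the knockout libraries (95% counting interval 127 to 921, log2 change -2.47 ± 0.08, limma adjusted p = 5.77e-06). The transcript OVOL1-AS1 on the other strand followed the same pattern, with 11 and 12 reads in WT and none in the knockout libraries.

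OVOL2 (chr20:17956979-18059188, minus strand), which also represses ZEB1, was at 5.66 and 5.41 FPKM in WT (266 and 216 reads). It had 2 reads in each KO1 library and none in KO2. Over both knockout groups its depth-scaled reads were 254-fold lower (95% counting interval 98.6 to 936, log2 change -2.68 ± 0.06, limma adjusted p = 1.76e-06). OVOL2 overlaps SNX5 and MGME1, which fell less: SNX5 was at 28.3 and 27.7 FPKM in WT and 8.09 to 10.5 in the knockout libraries, and MGME1 at 41.2 and 39.7 and at 15.1 to 16.6.

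The paralogs of these genes were lower in the knockout libraries as well. GRHL1, a close relative of GRHL2, fell from 4.84 and 5.19 FPKM in WT to 2.09 and 2.16 in KO1 and 1.41 and 1.65 in KO2 (log2 change -1.1 ± 0.06, limma adjusted p = 3.65e-05). GRHL3 fell from 2.56 and 2.47 FPKM to 0.191 to 0.427 (-1.43 ± 0.1, adjusted p = 6.96e-05). GRHL3 passed the filter through the WT libraries alone, so its direction was fixed. The summed GRHL level of 22.6 ± 0.165 FPKM in WT compared with 2.45 ± 0.0702 for KO1 and 1.85 ± 0.0104 for KO2 (SD, n = 2), and the main transcript was GRHL2 in WT (66.7%) and GRHL1 in KO1 (86.6%) and KO2 (82.6%). OVOL3, below the filter, was at 1.86 and 0.947 FPKM in WT and 0.0589 to 0.288 in the knockout libraries. The summed OVOL level of 11.6 ± 0.29 FPKM in WT compared with 0.161 ± 0.0713 for KO1 and 0.239 ± 0.0699 for KO2.

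ESRP1 and ESRP2 bind RNA beside alternative exons and set epithelial splicing. ESRP1 (chr8:94641074-94707466, plus strand) was the highest of the 10 genes in WT, at 55.5 and 52.8 FPKM (5839 and 4727 reads), and had no read in any knockout library. It was at least 1840-fold lower in the knockout average (log2 change -5.78 ± 0.05, limma adjusted p = 1.19e-07). ESRP2 (chr16:68229111-68238102, minus strand) was at 17.7 and 19.2 FPKM in WT, 11.3 and 11.2 in KO1, and 10.2 and 10.3 in KO2. All knockout libraries were below both WT libraries, yet the fall was 1.64-fold in KO1 (-0.66 ± 0.05, limma adjusted p = 8.81e-05) and 1.81-fold in KO2 (-0.79 ± 0.05, adjusted p = 4.32e-05). KO2 and KO1 differed by -0.13 ± 0.05 on the log2 scale, which was not called (limma adjusted p = 0.102) but was called when WT replicate 1 or 2 was left out (adjusted p = 0.0404 and 0.0408). ESRP2 overlaps NFATC3 on the other strand, which was at 4.19 to 5.0 FPKM in all 6 libraries. The summed ESRP level went from 72.6 ± 0.812 FPKM in WT, 74.5% of it ESRP1, to 11.3 ± 0.0416 in KO1 and 10.2 ± 0.0859 in KO2, all of it ESRP2.

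**Figure D4:**
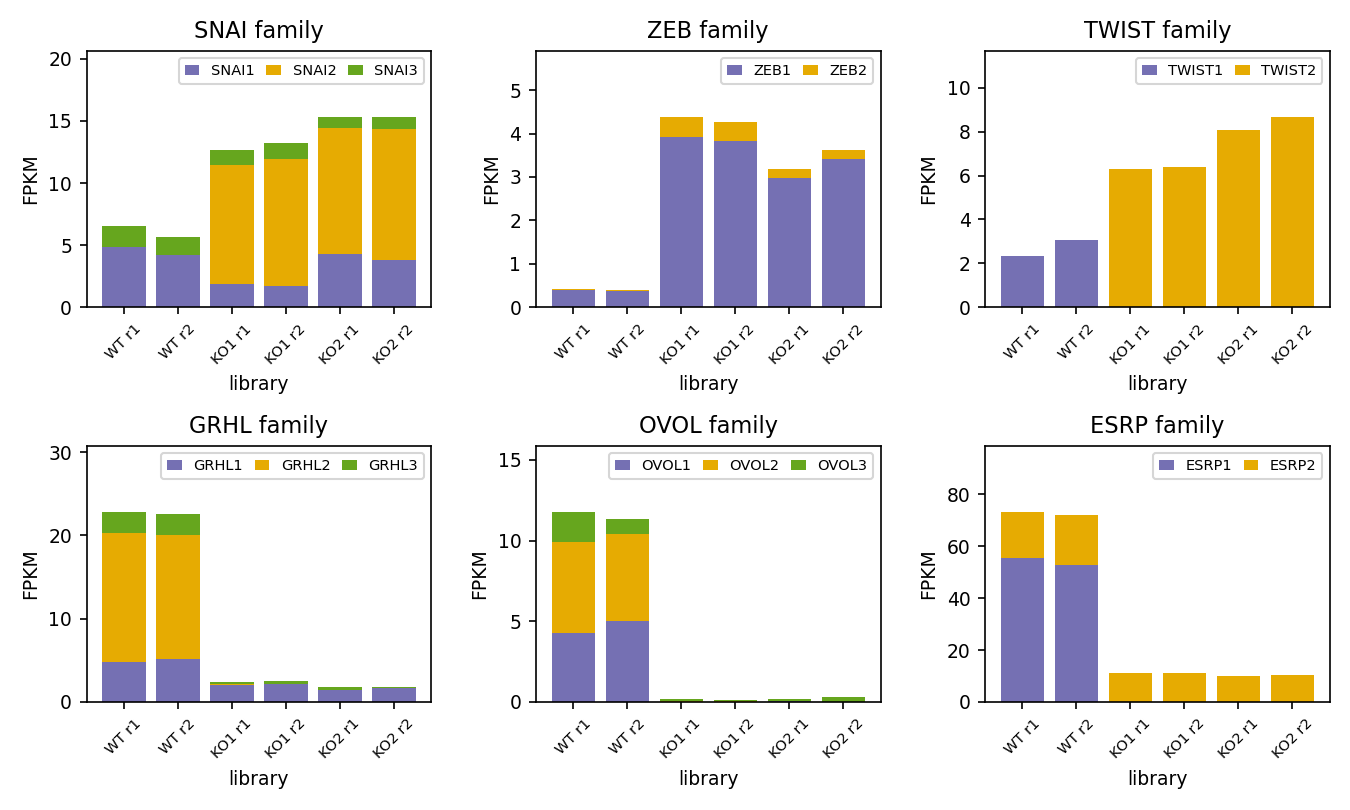
FPKM (vertical axis) of the paralogs of each family stacked for each of the 6 libraries (horizontal axis, r1 and r2 are replicates), with a scale of its own in each panel. The main transcript passes from SNAI1 to SNAI2, from TWIST1 to TWIST2, from GRHL2 to GRHL1 and from ESRP1 to ESRP2 between the WT and the knockout libraries, and the summed SNAI, ZEB and TWIST levels are higher and the GRHL, OVOL and ESRP levels lower in the knockout libraries.

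Other regulators of splicing in EMT were compared as a list. Of 16 listed, 13 were tested, of which 3 were higher, 6 lower and 4 not called in the knockout average, with a median log2 change of -0.14 against 0.02 over all tested genes, of which 40.5% were called higher and 40.1% lower. Scaling by library size alone gave 6 higher and 5 lower. MBNL2, a muscleblind splicing factor, rose from 6.38 and 5.75 FPKM in WT to 25.8 and 23.1 in KO1 and 14.3 and 15.0 in KO2 (log2 change 1.5 ± 0.06). RBM24 rose from no read to 2.15 and 2.09 FPKM in KO1 and 1.42 and 1.49 in KO2. MBNL1 fell by 0.92 ± 0.03 on the log2 scale and RBM47, an epithelial RNA-binding protein, by 0.88 ± 0.04.

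Genes whose exons ESRP1 and ESRP2 are known to switch were read at gene level, since splice forms were not measured. Of 12 listed, 11 were tested, with 2 higher, 8 lower and 1 not called (median log2 change -0.24, with 40.5% of all genes called higher and 40.1% lower), where scaling by library size alone gave 3 higher and 6 lower. ENAH, an actin regulator, rose from 2.08 and 1.9 FPKM in WT to 10.4 to 11.7 in the knockout libraries (2.0 ± 0.04, limma adjusted p = 1.07e-06). CD44, the hyaluronan receptor, rose from 5.66 and 5.12 FPKM to 24.0 and 24.9 in KO1 and 16.5 and 17.1 in KO2 (1.74 ± 0.05). CTNND1, which encodes p120 catenin, fell by 1.1 ± 0.03 on the log2 scale, and the Notch inhibitor NUMB fell by 0.96 ± 0.04.

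Epithelial genes that SNAI and ZEB factors are known to repress were mostly lower. All 22 listed genes were tested, and 20 were lower and 2 higher (median log2 change -2.83 against 0.02 over all tested genes, with 40.1% of all genes called lower). Of these, 11 reached 1 FPKM in WT libraries alone, CDH1 among them, so the direction of those 11 was fixed by the filter. CDH1, which encodes E-cadherin, was at 58.5 and 60.6 FPKM in WT, 0.153 and 0.157 in KO1, and 0.421 and 0.567 in KO2 (-5.53 ± 0.06, limma adjusted p = 1.91e-07). KO2 was 3.19-fold above KO1 (0.37 ± 0.06, adjusted p = 0.0149). The 4 with the largest falls were MAL2, a protein of apical transport (-6.86 ± 0.05), the protease inhibitors SPINT2 (-5.77 ± 0.07) and SPINT1 (-5.73 ± 0.05), and the trafficking GTPase RAB25 (-5.57 ± 0.05). The 2 higher genes, named after their values were seen, were DSP of the desmosome (28.2 and 29.5 FPKM in WT, 47.3 to 49.5 in the knockout libraries) and the mucin gene MUC1 (5.52 and 5.53 in WT, 30.2 and 30.6 in KO1, 46.7 and 49.2 in KO2).

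Of 18 mesenchymal genes 11 were tested, and 9 were higher and 2 lower (median log2 change 2.51, with 40.5% of all genes called higher). The filter was passed through the knockout libraries alone by 6 of them, VIM, CDH2 and COL1A1 included, and through WT alone by TNC, so their direction was fixed and the count is no support. VIM, the intermediate filament vimentin, rose from 0.126 and 0.306 FPKM in WT to 38.5 to 41.5 in the knockout libraries (5.08 ± 0.07, limma adjusted p = 3.1e-07). CDH2, which encodes N-cadherin, rose from 0.00936 and 0.011 FPKM to 11.7 to 12.4. The collagen gene COL1A1 rose by 2.87 ± 0.05 on the log2 scale. The 2 lower genes, named after their values were seen, were TAGLN, a contractile protein gene (4.68 and 3.91 FPKM in WT, 1.1 to 1.67 in the knockout libraries), and TNC, which encodes tenascin-C (3.71 and 4.25 in WT, 0.0089 to 0.0224). COL1A1 is also among the fibroblast markers, whose sum was higher in the knockout libraries as given above.

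Of 16 other EMT-inducing transcription factors 12 were tested, with 3 higher, 8 lower and 1 not called (median log2 change -0.52, with 40.5% of all genes called higher and 40.1% lower). The forkhead gene FOXC2 rose from 0.0319 and 0.0939 FPKM in WT to 18.5 and 17.9 in KO1 and 12.6 and 14.0 in KO2 (3.96 ± 0.06, limma adjusted p = 4.06e-07), and TWIST2 was also among the higher ones. FOXC2 and TWIST2 passed the filter through the knockout libraries alone, so their direction was fixed. FOXQ1 fell from 41.3 and 44.6 FPKM to 4.15 to 5.53 (-2.88 ± 0.07), and the chromatin protein gene HMGA2 from 4.64 and 4.5 FPKM to 0.577 to 1.05 (-1.63 ± 0.06).

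Of 16 other epithelial transcription factors 12 were tested, with 3 higher, 8 lower and 1 not called (median log2 change -0.88, with 40.5% of all genes called higher and 40.1% lower). The ETS factor EHF fell from 39.6 and 40.9 FPKM in WT to 0.558 to 1.07 (-4.57 ± 0.06, limma adjusted p = 3.72e-07). The AP-2 factors went the other way. TFAP2C had no read in WT and 7.8 to 8.8 FPKM in the knockout libraries (at least 165-fold higher), and TFAP2A rose from 1.76 and 1.91 FPKM to 12.1 to 12.3 (2.22 ± 0.04).

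Of 20 cofactors and degraders of SNAI and ZEB proteins 19 were tested, with 5 higher, 10 lower and 4 not called (median log2 change -0.15). As 80.6% of all genes were called, this share is near the background, and scaling by library size alone gave 8 higher and 9 lower. FBXL14, a ubiquitin ligase subunit that marks SNAI1 for degradation, fell from 12.4 and 15.3 FPKM in WT to 4.37 to 5.02 (-1.37 ± 0.09). CTBP2, a corepressor bound by ZEB factors, fell by 1.33 ± 0.05 on the log2 scale and the ligase subunit gene FBXO45 by 1.13 ± 0.03, while EZH2, the histone H3 methyltransferase, rose by 1.28 ± 0.04.

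Of 21 signalling genes that can induce these factors 20 were tested, with 9 higher, 9 lower and 2 not called (median log2 change 0.08), near the background of 40.5% higher and 40.1% lower. BMP4 was at 228 and 235 FPKM in WT and had 1 read over the 4 knockout libraries, and BMP7 was at 8.86 and 9.66 FPKM in WT and below 0.01 in every knockout library. The Notch ligand gene JAG1 fell from 32.4 and 33.2 FPKM to 0.658 to 1.24 (-4.15 ± 0.04). WNT5A, a Wnt ligand, had no read in WT and was at 12.6 and 12.3 FPKM in KO1 and 9.5 and 9.28 in KO2 (at least 534-fold higher). SMAD4, the shared partner of the TGF-beta and BMP receptor SMADs, was chosen after its values were seen: it was at 0.18 and 0.178 FPKM in WT and 4.03 to 4.57 in the knockout libraries (2.18 ± 0.05, limma adjusted p = 1.45e-06). SMAD4 and WNT5A passed the filter through the knockout libraries alone, and BMP4 and BMP7 through WT alone, so their direction was fixed.

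**Figure D5:**
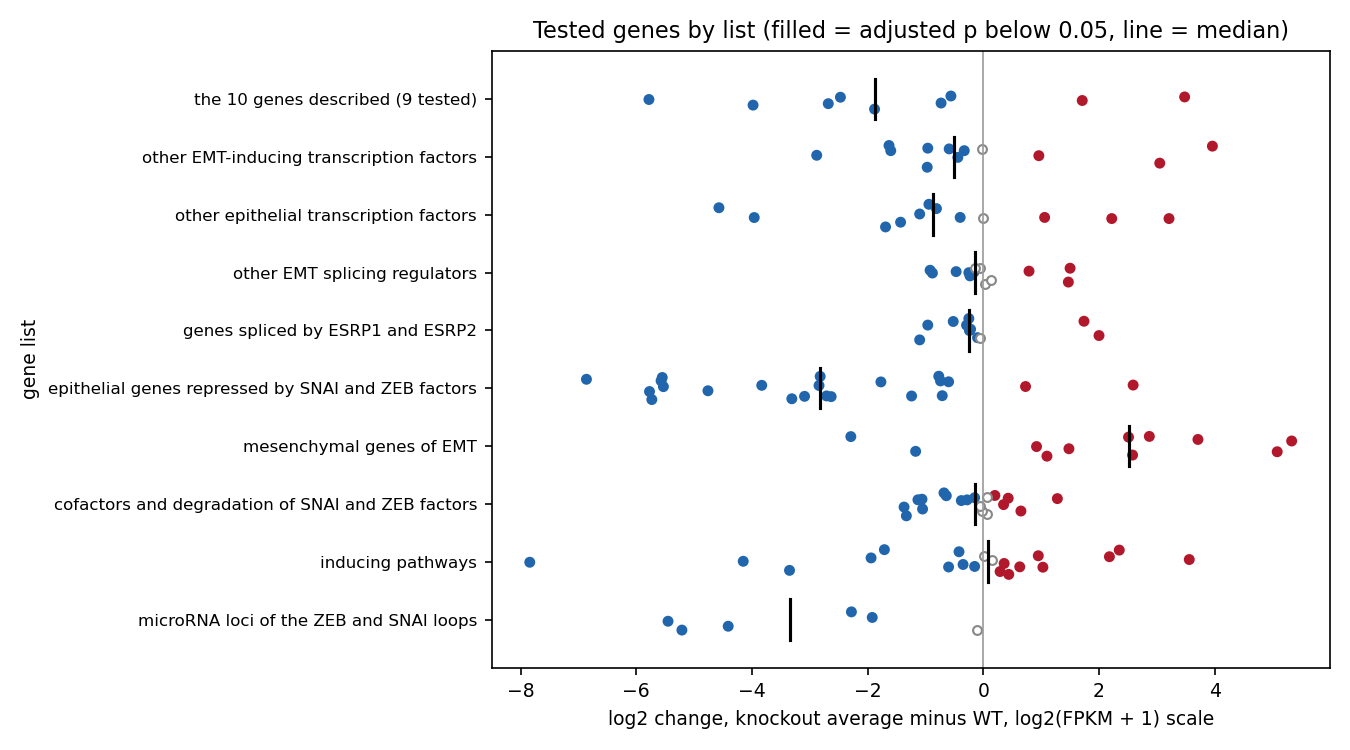
Log2 change of the knockout average against WT (horizontal axis, log2(FPKM + 1) scale) for each tested gene of the panel and of 9 lists of related genes, with genes called higher in red, lower in blue and not called open, and the list median as a black line. The repressed epithelial genes lie mostly to the left (median -2.83) and the mesenchymal genes to the right (median 2.51), and the other EMT-inducing factors lie on both sides. The filter fixed the direction of 11 of the repressed epithelial genes, and of 6 mesenchymal genes and TNC.

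Genes near the panel in the genome were compared for regional shifts, over protein-coding tested genes within 1 Mb (median log2 change -0.05 over all 11882 such genes in the genome). All 7 neighbours of GRHL2 were lower (median -1.06, range -1.27 to -0.28), as were 13 of 14 neighbours of ESRP1 (median -0.76) and 12 of 13 of OVOL2 (median -0.59), where 40.1% of all tested genes were called lower. On the log2(FPKM + 1) scale, the change of GRHL2, -3.98, of ESRP1, -5.78, and of OVOL2, -2.68, was larger than that of every such neighbour (lowest -1.27, -1.96 and -1.72). All 3 neighbours of SNAI2 were higher, with 0.67 as the highest against 3.48 for SNAI2, where 40.5% of all tested genes were called higher. OVOL1 fell, while 44 of its 71 neighbours were higher and 15 lower (median 0.35, lowest -4.4, beyond the -2.47 of OVOL1). ZEB1 rose, while 4 of its 6 neighbours were lower (median -0.29). ESRP2 had 12 higher and 22 lower among 39 (median -0.21, lowest -5.53), SNAI1 had 11 higher and 3 lower among 18 (median 0.29), and TWIST1 had 1, at -0.24. Whether the shift of these regions has a part in the changes of the genes was not tested.

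For each tested gene, the protein-coding genes with the most similar profile over the 6 libraries were found by the root mean square difference of log2(FPKM + 1) after centring each gene. Among 11881 genes, the closest to SNAI1 were CTSV (0.088), ZFP90 (0.095) and TMEM52 (0.102), and 2 genes came within 0.1. CTSV had 3.77 and 3.53 FPKM in WT, 1.1 and 1.16 in KO1, and 2.89 and 2.97 in KO2, with KO1 again the lowest. The closest to SNAI2 were TCEA3, GSDME and MATK (0.041 to 0.062), to ZEB1 TCEA2, SMARCD3 and ELL2 (0.043 to 0.051), and to TWIST1 C6orf141, KRT6B and MYB (0.018 to 0.031). GRHL2 was closest to SERPINA1, QPCT and TMEM125 (0.035 to 0.043), OVOL1 to RRAGD, NECTIN4 and SLC44A4 (0.034 to 0.042), OVOL2 to PTPN20, GUCY1A1 and SLC44A5 (0.029 to 0.034), and ESRP1 to KRT20, SPINT1 and PGAP3 (0.024 to 0.072). ESRP2 was closest to SAMD4B, NOC4L and COL27A1 (0.027 to 0.029), and 674 genes came within 0.1 of it. That count was 13 for SNAI2, 72 for ZEB1, 58 for TWIST1 and 22 for GRHL2. It was 51 for OVOL1, 59 for OVOL2 and 4 for ESRP1. The measure compares steps on the log2(FPKM + 1) scale and not folds. NECTIN4 went from 15.4 and 16.7 FPKM in WT to 1.9 to 2.15 in the knockout libraries, where OVOL1 was at or near 0 reads.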

How the data were processed

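The authors deposited FPKM values per library for 58735 Ensembl gene IDs, each of which matched GENCODE release 29, the source of names, exon lengths and GRCh38 coordinates. The tools named per the submitters' processing notes are HISAT2 2.0.5 and featureCounts 1.5.0-p3, with the build hg38. The roles of these tools, the annotation release, strandedness and multi-mapping rules are not given in the sources used. Each deposited FPKM value times exon length was a whole multiple of the value of 1 read (100% of values, within 0.1 of a read), which gave back the reads: 22852340 and 19618509 in WT, 22673871 and 21880796 in KO1, 18627054 and 17599759 in KO2. For a gene of 1 kb, 1 read equals 0.0429 to 0.0544 FPKM. The scaling totals behind the FPKM were 0.945 and 0.936 of the recovered reads in WT, but 1.029 to 1.055 of them in the knockout libraries. This lowers the deposited knockout levels relative to WT, compared with scaling by the recovered reads. Floors of 3 reads per library and 95% exact intervals cover counting error only. Replicate libraries differed by more than counting error (chi-square per degree of freedom 1.829 to 2.577).

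log2(FPKM + 1) of genes with at least 1 FPKM in 2 libraries was fitted with limma 3.58.1 (R 4.3.3) over all 6 libraries, with a mean per group and a mean-variance trend. Python 3.11.15 was used for the rest. The fit was also run on simulated data in which few genes changed, unlike these data, so that run does not bear on the calls here. Folds are ratios of mean FPKM, or of depth-scaled reads where an interval is given. Depth-scaled reads were scaled by the same totals as the FPKM. Alternatives were the pseudocount, the filter, the scaling, voom, the trend, a replicate block, a single knockout group and leaving out each library. From each list, the 4 called genes with the largest change were named, with SNAI3, TWIST2, GRHL1, GRHL3, OVOL3, CDH1, VIM and CDH2. Some genes that this rule names are not reported here. The genes and lists were chosen with earlier results of these data known. The listed antisense genes TWIST1-AS1 and SNAI1-AS1 were not matched by name. For each gene, the transcript with the longest coding sequence supplied the 3′ UTR. RefSeq promoter windows were at hand for ZEB1 and ZEB2.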

Additional observations from a re-analysis of the deposited data

Results flagged for a closer look

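SNAI1 differed between the knockout groups, with a change against WT of -0.98 in KO1 and -0.13 in KO2 on the log2 scale. The difference was 0.85 ± 0.09 (limma, adjusted p = 0.00322), and both KO2 libraries were above both KO1 libraries.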

How the results depend on the processing

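Over the 443 alternative values of the tested genes, 438 kept their direction and their side of the threshold. For genes that passed the filter through WT alone or the knockout libraries alone, the direction and call against WT could hardly change. The count therefore says little about them. Sizes depended on the pseudocount, the value added to FPKM. With 0.1 in place of 1, the average log2 change went from -5.78 to -9.08 for ESRP1 and from 3.48 to 6.68 for SNAI2. It went from -1.88 to -4.8 for TWIST1 and from 1.71 to 2.91 for ZEB1, but from -0.73 to -0.78 for ESRP2. The average change of SNAI1 lost its call with the 4 knockout libraries as a single group (-0.56, adjusted p = 0.16). Its change in KO2 turned from -0.13 to 0.001 with library size as the only scaling (adjusted p = 0.993). The 3 calls that were gained were all between KO2 and KO1: ZEB1 with voom, and ESRP2 without WT replicate 1 or 2, each of which brought the count of called genes of the panel from 1 to 2. Without a filter, or with one of 0.1 FPKM, the count was also 2, through ZEB2, which is tested only there. Over fits that leave out 1 library it was 1 to 2. Genes called between KO2 and KO1 were 4203 with all libraries and 1849 to 3365 with 1 left out (1849 without KO1 replicate 1, 1971 without KO1 replicate 2, 2757 without KO2 replicate 1, 2539 without KO2 replicate 2), where fewer samples were fitted and the lone library of a group was assumed to vary like the others. The cause of the other changes was not tested.

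Replicate numbers did not pair the libraries (correlations of deviations 0.0191, -0.00406 and -0.0383). With the replicate block, 12857 genes were called in the knockout average, against 12940, and 3467 between KO2 and KO1, and no gene of the panel changed its call. Library size as the only scaling moved the median log2 change of all genes from 0.02 to 0.14, and voom to 0.17. Among the listed genes, quantile normalization turned the sign of the called changes of KDM1A, KHDRBS1, PTBP1 and RAC1, and both other scalings that of RAC1, all changes of at most 0.23 in size. Depth limits the genes with no read: their folds are lower bounds.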

Other observations

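The antisense transcript SNAI3-AS1, beside the paralog SNAI3, was at 0.368 and 0.519 FPKM in WT, 1.57 and 1.28 in KO1, and 0.901 and 0.941 in KO2, higher in the knockout average (0.58 ± 0.09 on the log2 scale, limma adjusted p = 0.00193). It passed the filter through KO1 libraries alone, so that p supports nothing beyond the levels. Without strand, reads of SNAI3-AS1 from any overlap with SNAI3 cannot be told apart from those of SNAI3. ZEB2-AS1 had no read in any library, although ZEB2 was higher in the knockout libraries. SNORD17, a small nucleolar RNA that overlaps the span of OVOL2, had 129 and 96 reads in WT and 18 to 34 in the knockout libraries. SNX5 also overlaps OVOL2, on the same strand, and fell less than OVOL2, as given above. Which of these transcripts SNORD17 goes with was not tested.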
